A study of Mus musculus with 3 samples.

Results

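Natural killer (NK) cells were picked out of single-cell RNA profiles of mouse lung carcinoma tissue by their receptor genes. A barcode counted as an NK cell if it held at least 200 genes, at most 20% mitochondrial UMIs, and at least 1 UMI in 2 or more of the 6 gate genes Ncr1, Klrb1c, Klre1, Klra8, Klra4 and Eomes. UMIs are unique molecular identifiers, each standing for 1 captured RNA molecule. The barcode also had to hold no UMI of Cd3d, Cd3e, Cd3g or Cd79a, at most 1 of C1qa, C1qb and C1qc together, and at most 2 of Krt8 and Krt18 together. This rule found 169 NK cells among 32801 kept barcodes: Flox+ICI held 85, Flox+RI held 13, and 71 came from the library labelled CKO+RI. The UMIs of the gate and excluded genes chose the cells, so contrasts between NK cells and other barcodes are given as a description.

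NK cells are innate lymphocytes that kill stressed, infected or transformed cells without a rearranged antigen receptor. A balance of germline-encoded activating receptors and of inhibitory receptors for MHC class I decides whether perforin and granzymes are released from their granules. They also secrete interferon gamma and chemokines, and in the lung they are among the lymphocytes that meet tumour cells arriving through the blood.

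All 3 groups share the tumour, LLC1-sgLkb1 cells, which are Lewis lung carcinoma cells labelled as an LKB1 knockdown. The cells were given through the tail vein to seed the lung and later under the skin, where the tumour served as the irradiated side. Flox+ICI stands for Sfrp2fl/fl hosts given an immune checkpoint inhibitor alone and Flox+RI for such hosts given radiation with the inhibitor. CKO+RI stands for Sfrp2ΔCol1a2 hosts, in which the Col1a2 promoter, active in fibroblasts, drives the deletion, given both treatments. Tumour is the only tissue label, and which lesion was taken, how many animals were used, how old they were and whether they were pooled is not stated. Each group is 1 library, so there is no test between groups. Intervals in parentheses are exact 95% intervals, which cover counting error only and not the spread between animals. Those of levels and of gene ratios come from UMIs summed over cells, so they also leave out the spread between cells.

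The 3 deposited matrices held 75543561, 101840883 and 161250286 UMIs for Flox+ICI, Flox+RI and CKO+RI, and their kept barcodes had medians of 3254.5, 2923 and 14467.5 UMIs. NK cells were shallower, with medians of 1295, 1072 and 2282 UMIs and of 868, 778 and 1207 genes. The library labelled CKO+RI did hold UMIs of the conditional gene. Over all kept barcodes Sfrp2 had 24, 12 and 46 UMIs in that order, and no NK cell held one. These are raw counts, and the library labelled CKO+RI, last in that order, also held the most UMIs. They therefore do not rank the libraries by Sfrp2 level. The sources used here do not name the deleted part of Sfrp2, so reads from the 3' end may lie outside it and check nothing. Any 2 libraries shared 29 to 37 kept barcodes, and no barcode was an NK cell in more than 1 library.

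The promoters of 4 genes are shown because these genes mark the cells: Ncr1 encodes the NK cell receptor NKp46, Prf1 encodes perforin, and Klra8 (Ly49H) and Klra4 (Ly49D) are neighbouring activating Ly49 receptor genes. The windows are from RefSeq (GRCm38.p6) and run from 250 bases before to 50 after each start: chr7:4337465-4337764 on the plus strand, chr10:61297586-61297885 on the plus strand, chr6:130129849-130130148 on the minus strand and chr6:130067222-130067521 on the minus strand. Capitals mark matches on either strand to the RUNX letters TGTGGT and to the T-box letters GGTGTG.
Ncr1: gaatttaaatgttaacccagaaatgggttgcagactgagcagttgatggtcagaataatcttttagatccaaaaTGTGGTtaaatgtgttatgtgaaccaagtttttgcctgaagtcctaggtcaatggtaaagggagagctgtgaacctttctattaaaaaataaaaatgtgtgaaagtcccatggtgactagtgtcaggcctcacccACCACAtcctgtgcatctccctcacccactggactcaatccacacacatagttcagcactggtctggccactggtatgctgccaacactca
Prf1: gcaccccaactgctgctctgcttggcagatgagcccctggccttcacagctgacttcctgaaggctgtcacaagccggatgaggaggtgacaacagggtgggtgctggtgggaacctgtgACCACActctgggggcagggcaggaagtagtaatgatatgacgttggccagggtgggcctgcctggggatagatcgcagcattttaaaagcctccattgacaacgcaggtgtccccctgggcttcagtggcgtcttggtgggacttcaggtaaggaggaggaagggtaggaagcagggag
Klra8: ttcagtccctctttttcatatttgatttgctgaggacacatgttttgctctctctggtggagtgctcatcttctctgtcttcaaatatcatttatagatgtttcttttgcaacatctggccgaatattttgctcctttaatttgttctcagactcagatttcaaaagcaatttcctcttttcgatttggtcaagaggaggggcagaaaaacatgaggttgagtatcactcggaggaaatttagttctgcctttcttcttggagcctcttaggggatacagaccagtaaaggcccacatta
Klra4: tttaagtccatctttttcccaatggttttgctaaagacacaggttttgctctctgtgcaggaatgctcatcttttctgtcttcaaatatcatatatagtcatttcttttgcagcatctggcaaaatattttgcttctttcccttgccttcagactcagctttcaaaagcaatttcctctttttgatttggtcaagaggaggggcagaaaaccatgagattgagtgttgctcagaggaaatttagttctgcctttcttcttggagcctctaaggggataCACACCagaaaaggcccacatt
The Ncr1 window holds RUNX matches at positions -176 and -41 from the start, and Prf1 holds 1 at -130. Klra8 has no match of either motif, and Klra4 has a T-box match at position 28. The Klra8 and Klra4 windows are 86.0% identical, with 259 of 301 aligned columns the same. Of 23 gate and leading genes (leading genes are defined further on) 18 had a RefSeq promoter, and 7 of these 18 (38.9%) held the RUNX letters against 16.9% of all 27025 promoters. The T-box letters stood in 3 of 18 (16.7%) against 19.0%, and the ETS letters AGGAAG in 8 of 18 (44.4%) against 35.1%. A match is a run of letters and not a measured binding site.

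NK cells were few in Flox+RI and made up near-equal shares of the other libraries. They were 0.795% (0.635 to 0.982) of kept barcodes in Flox+ICI against 0.0994% (0.0530 to 0.170) in Flox+RI and 0.786% (0.614 to 0.990) in CKO+RI. The share in CKO+RI was 7.90 (4.34 to 15.6) times that in Flox+RI, and the share in Flox+RI was 0.125 (0.0640 to 0.226) times that in Flox+ICI. Both comparisons use the same Flox+RI library and its 13 cells. CKO+RI over Flox+ICI gave a ratio of 0.988 (0.711 to 1.37), an interval that holds 1. This last comparison was added after the number of cells in Flox+RI was seen, and in it host genotype and radiation cannot be told apart. A lower share can mean fewer NK cells or more of the other cells.

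CD8 T cells were less unequal between the libraries. Barcodes with at least 2 Cd3 UMIs and at least 1 of Cd8a or Cd8b1, no Cd4, fewer than 2 gate genes and the same limits on other lineages numbered 198, 106 and 197. Among NK cells and T cells (kept barcodes with at least 2 Cd3 UMIs), NK cells made up 11.5% (9.29 to 14.03) in Flox+ICI against 2.93% (1.57 to 4.95) in Flox+RI and 11.7% (9.25 to 14.5) in CKO+RI. On that denominator the ratio was 3.99 (2.19 to 7.87) for CKO+RI over Flox+RI and 0.255 (0.130 to 0.459) for Flox+RI over Flox+ICI. Flox+RI was again lowest, with smaller gaps than over all barcodes.

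Among barcodes with a UMI of Ptprc, which encodes the leukocyte protein CD45, NK cells with such a UMI made up 1.68%, 0.343% and 2.62%, and here CKO+RI over Flox+ICI was 1.56 (1.10 to 2.22). Depth differs between libraries, so each barcode was also thinned to 1000 UMIs before the gate, leaving out shallower ones. The shares were then 0.567% (0.424 to 0.743), 0.0786% (0.0316 to 0.162) and 0.550% (0.403 to 0.733), again lowest in Flox+RI.

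**Figure D1:**
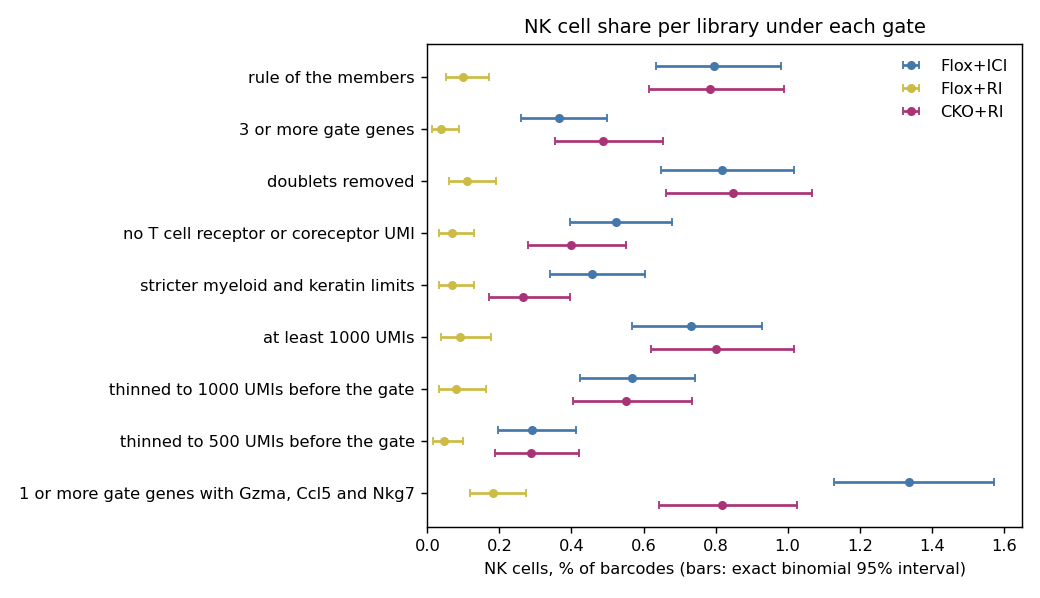
NK cells as a percentage of barcodes in each library under the rule and 8 other gates; points are shares and bars exact binomial 95% intervals. Flox+RI lies lowest under each gate drawn, at 0.0994% under the rule, while Flox+ICI and CKO+RI overlap under the rule and lie apart under the gate that asks for Gzma, Ccl5 and Nkg7.

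The limits on other lineages removed more barcodes in CKO+RI than in the other libraries. There 161 barcodes had 2 or more gate genes, of which 26 held a Cd3 UMI and 64 more were removed by the other limits, 61 of them by keratin. These 64 had a median of 36001.5 UMIs, and 56 of them held Klra4, 43 held Eomes and 15 held Gzma. In Flox+ICI 9 barcodes were removed this way and in Flox+RI 7. Klra4 and Eomes UMIs were thus also found in deep keratin-bearing barcodes. Over all barcodes outside the NK cells Klra4 stood at 0.851, 6.001 and 9.74 CPM, the UMIs per 1000000 of a summed profile, and Ncr1 at 0.466, 0.0593 and 0.224 CPM.

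At the edge of the rule, 46, 8 and 27 NK cells held exactly 2 gate genes, and 130, 50 and 42 barcodes under the same limits held 1. Gzma, a granule protease that the rule did not use, was found in 95.7%, 100% and 81.5% of the cells with exactly 2 gate genes and in 65.4%, 36.0% and 23.8% of those with 1. Its level was 7933, 6284 and 6502 CPM just inside and 2145, 723 and 648 CPM just outside. Asking instead for 1 gate gene together with Gzma, Ccl5 and Nkg7, a gate chosen after the data were seen, gave 143, 24 and 74 cells. With it CKO+RI over Flox+ICI was 0.612 (0.456 to 0.816). With no limit on C1q or keratin this ratio was 1.57 (1.19 to 2.08), and with stricter myeloid and keratin limits 0.580 (0.340 to 0.963). The near-equal shares of these libraries thus depend on the gate, which moved their ratio both ways.

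The genes that led the NK cells included known NK cell genes that the rule did not use. Ranked by the lowest of the 3 ratios to all other barcodes, among 119 genes with at least 10 UMIs in the NK cells of every library, the first 10 were Klra8, Cma1, Klrb1c, Gzma, Prf1, Tbx21, Ccl5, Nkg7, Klra4 and Il12rb2. Among the 20 leading genes 3 are gate genes and 17 are not. Cma1, a chymase gene, was at 152, 712 and 119.8 CPM in NK cells of Flox+ICI, Flox+RI and CKO+RI and at 0.333, 0.0593 and 0.131 CPM outside them. The 14 NK markers summed to 16556, 16508 and 20809.7 CPM, and Eomes in Flox+RI was the only one at 0 in a library. This list holds gate genes, Eomes among them, so its sum depends in part on the rule and is a description.

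T cell markers that the rule did not use were in part absent. Cd4, Cd8a, Cd8b1 and Cd5 had no UMI in any NK cell, and Trac, the constant gene of the T cell receptor alpha chain, had 0, 2 and 0. Of the 11 T cell markers 8, 7 and 8 were at 0, of which the rule itself set Cd3d, Cd3e and Cd3g to 0, and the list summed to 342, 498 and 517 CPM. The beta chain constant genes were present, with Trbc1 at 228, 213 and 202 CPM and Trbc2 at 98.8, 71.2 and 278 CPM. Only 56 of 85, 9 of 13 and 36 of 71 NK cells held no UMI of Trac, Trbc1, Trbc2, Cd4, Cd8a or Cd8b1. The ILC3 list summed to 15.2, 0 and 5.45 CPM, the ILC2 list to 167, 285 and 119.8 and the B cell list, whose Cd79a the rule also set to 0, to 7.60, 0 and 32.7.

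RNA of other cells was measurable in NK cells. The alveolar type 2 list of surfactant genes summed to 767, 427 and 637 CPM, against 3224, 1057 and 969 over all kept barcodes. The neutrophil list stood at 745, 0 and 4417 CPM, and in CKO+RI 530 of its 811 UMIs were in 1 cell. The erythroid list stood at 91.2, 142 and 17580.2 CPM, with 3140 of 3228 UMIs in 1 cell of CKO+RI. Single cells thus hold most of these sums in CKO+RI.

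**Figure D2:**
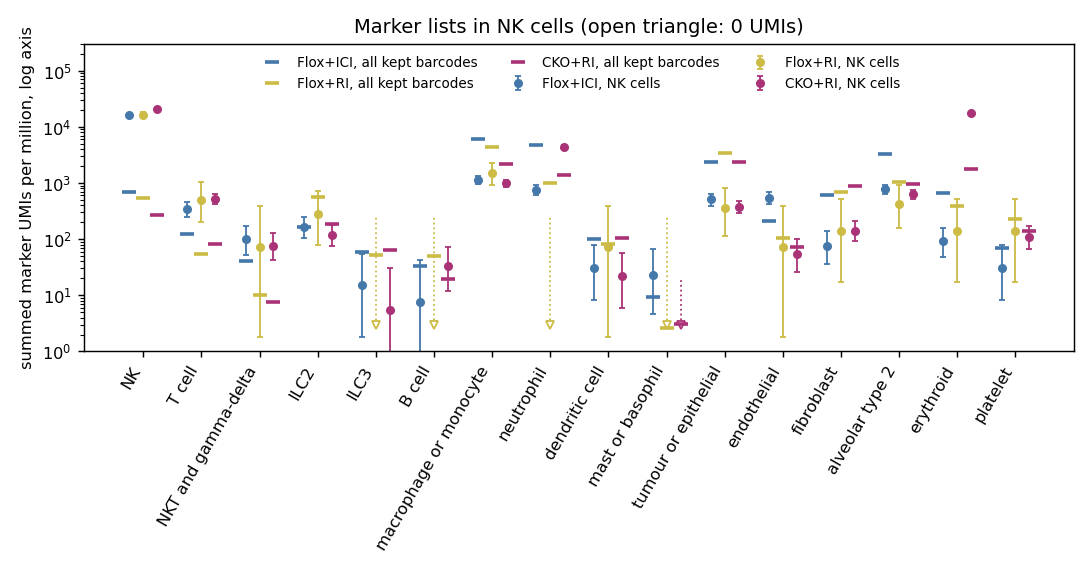
Summed level of each of 16 marker lists in UMIs per 1000000, on a log axis, for NK cells (points with exact Poisson 95% intervals) and for all kept barcodes of the same library (dashes). The NK list, which holds gate genes used by the rule, stands at 16508 to 20810 CPM in NK cells. The erythroid point of CKO+RI at 17580 CPM rests on 1 cell with 3140 of the 3228 UMIs.

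Scaling bears on every comparison with the 13 cells of Flox+RI. Ratios here are of CPM, and a gene was measured in a comparison if its libraries held at least 20 of its UMIs together; counts past 2-fold use log2 ratios with 0.5 UMI added to each sum. Scaling by TMM, a trimmed mean over genes, moved every log2 ratio by 0.80 for CKO+RI over Flox+RI, by -0.68 for Flox+RI over Flox+ICI and by 0.12 for CKO+RI over Flox+ICI. Genes at least 2-fold higher and lower numbered 222 and 338 in CKO+RI over Flox+RI, and 564 and 54 with TMM. In Flox+RI over Flox+ICI they numbered 166 and 153, and 18 and 411 with TMM. In CKO+RI over Flox+ICI they numbered 158 and 334, and 205 and 257 with TMM. The first 2 comparisons share Flox+RI, and the balance of their counts turns with the scaling. The median log2 ratio of all measured genes was -0.15, 0.16 and -0.13 in the 3 comparisons, and list medians below are to be read against these.

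Among the activating receptors named here, the interval of the ratio of CKO+RI to Flox+ICI left out 1 for Klre1 and held 1 for Ncr1 and Klrk1. Ncr1 was at 365 (269 to 484) CPM in Flox+ICI against 356 (116 to 830.3) in Flox+RI and 468 (375 to 578) in CKO+RI, in 34, 5 and 42 cells. Klrb1c, which encodes the NK1.1 antigen, was at 509, 925 and 561 CPM, and Klrk1, which encodes the receptor NKG2D and was not used by the rule, at 448, 213 and 501 CPM. Klre1, a receptor of the lectin-like family, was at 189.9 (123 to 280.4), 285 (77.5 to 729) and 408 (321 to 512) CPM. The ratio of CKO+RI to Flox+ICI was 2.15 (1.35 to 3.53) for Klre1, 1.28 (0.892 to 1.87) for Ncr1 and 1.12 (0.797 to 1.58) for Klrk1. Ncr1, Klrb1c, Klre1, Klra8 and Klra4 of this list are gate genes, and their levels within the NK cells depend in part on the rule.

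In CKO+RI over Flox+RI, 1 of 10 measured activating receptors was at least 2-fold higher, Klrk1, with an interval that holds 1 (0.778 to 11.6), and none at least 2-fold lower, where 13.1% of all measured genes were higher and 20% lower. In Flox+RI over Flox+ICI none of 8 passed 2-fold either way, against 12.0% higher and 11.1% lower. In CKO+RI over Flox+ICI 1 of 10 was at least 2-fold higher, Klre1, and none lower, where 5.37% and 11.4% of all measured genes were. Since the list holds gate genes and Klre1 is one, nothing is read from these counts. Of the adaptors that carry these receptors' signals, Tyrobp (DAP12) was at 1702, 1779 and 2287 CPM and Fcer1g (the Fc receptor gamma chain) at 1596, 1779 and 1699 CPM. Of the adaptor list none of 12 passed 2-fold in CKO+RI over Flox+ICI, and over Flox+RI 1 of 10 was higher, Syk, and 1 lower, Cd247.

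Klra8 and Klra4 UMIs were found together in some NK cells and apart in others. Klra8 and Klra4, whose promoters are printed above, were found together in 21 cells of Flox+ICI, Klra8 without Klra4 in 19, Klra4 without Klra8 in 25 and neither in 20. In Flox+RI the numbers were 2, 6, 3 and 2, and in CKO+RI 14, 15, 15 and 27. Both are gate genes, so the rule shapes these numbers, and a transcript not found at this depth is not shown to be absent. In the last 500 bases of their transcripts no 91-base window of Klra8 or Klra4 was shared with another Klra gene. For Klra9, Klra7 and Klra3 such windows made up 13.7%, 9.76% and 8.05%, so their counts are less certain. The sources used here do not give the read length.

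Summed over cells, Klra8 was at 608, 712 and 474 CPM and Klra4 at 562, 783 and 517 CPM. Klra9 was at 365, 569 and 501 CPM, Klra7 at 220.3, 498 and 234 and Klra3 at 129, 0 and 169. For 0 UMIs in Flox+RI the exact upper bound is 262 CPM. The 2 activating and 3 other Ly49 genes thus showed no common order of the libraries. Klrc1, which encodes NKG2A, the inhibitory partner of CD94, had 4, 2 and 26 UMIs in 4, 2 and 17 cells, and its ratio of CKO+RI to Flox+ICI was 4.66 (1.62 to 18.4). Klrd1, the gene of CD94 itself, was at 357, 498 and 599 CPM, a ratio of 1.68 (1.18 to 2.41). Klrc1 was the only 1 of 8 measured inhibitory receptors at least 2-fold higher in CKO+RI over Flox+ICI, and none was 2-fold lower. Of all measured genes 5.37% were higher and 11.4% lower. The checkpoint receptor gene Pdcd1 had no UMI in any NK cell.

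**Figure D3:**
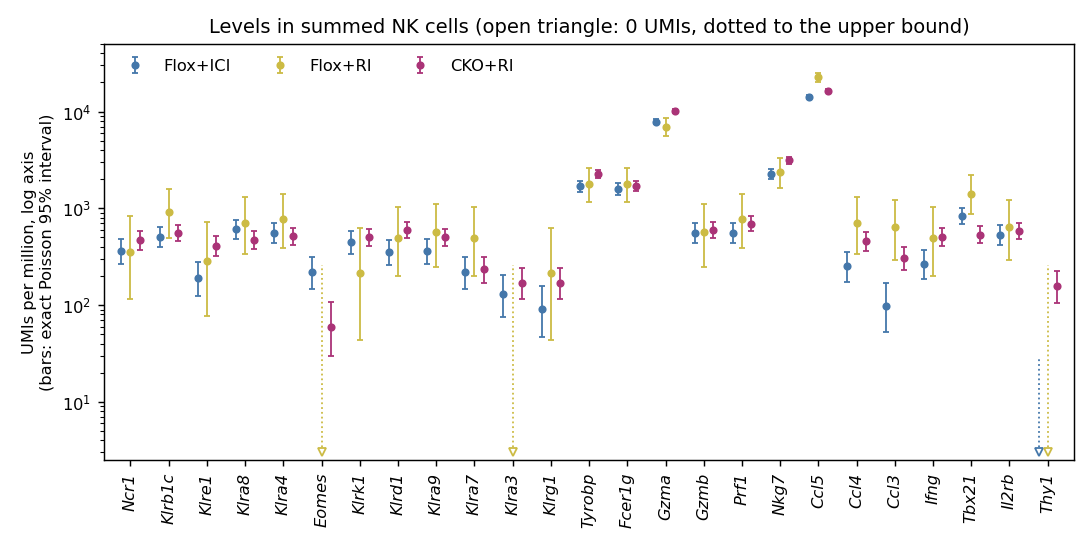
Level of 25 NK cell genes in the summed NK cells of each library, in UMIs per 1000000 on a log axis, with exact Poisson 95% intervals; open triangles mark 0 UMIs. The intervals of Ncr1 overlap between libraries, while those of Klre1 in Flox+ICI and CKO+RI do not. Eomes is lower in CKO+RI (59.9 CPM) than in Flox+ICI (220.3 CPM). Ncr1, Klre1 and Eomes are gate genes, so their levels depend in part on the rule.

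Of the killing machinery, Gzma and Nkg7 transcripts were found in most NK cells of each library. Unthinned, Prf1 was found in 46.2% and Gzmb in 30.8% of the cells of Flox+RI. Gzma was found in 79 of 85 cells of Flox+ICI, 13 of 13 of Flox+RI and 66 of 71 of CKO+RI, and 71, 11 and 65 cells held Gzma, Ccl5 and Nkg7 together. Per 10000 UMIs of a cell, Gzma ran from 0 to 304 with a median of 86.2 in Flox+ICI, from 29.5 to 148 with a median of 57.8 in Flox+RI, and from 0 to 301 with a median of 114 in CKO+RI. The ranges overlap. In the summed cells Gzma stood at 7887 (7414 to 8381), 6973 (5661 to 8498) and 10217 (9759.8 to 10690) CPM, a ratio of 1.295 (1.20 to 1.40) for CKO+RI over Flox+ICI.

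**Figure D4:**
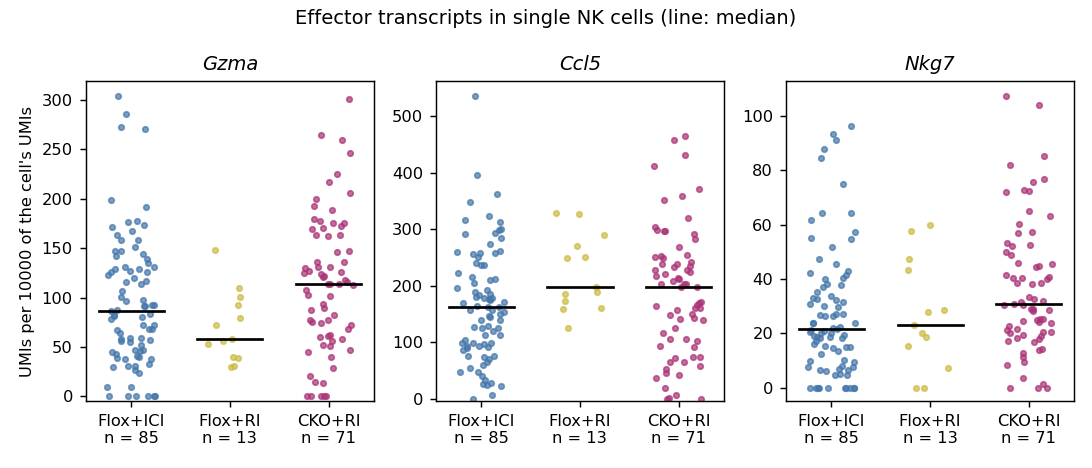
UMIs of Gzma, Ccl5 and Nkg7 per 10000 UMIs in each NK cell (points) with the median (line), by library, for 85, 13 and 71 cells. The cells of the 3 libraries overlap for each gene; for Gzma the medians are 86.2 in Flox+ICI against 57.8 in Flox+RI and 114 in CKO+RI.

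Nkg7, a granule membrane protein, was at 2272, 2348 and 3132 CPM, Prf1 at 562, 783 and 697 CPM and Gzmb, the caspase-activating granzyme, at 555, 569 and 599 CPM. The ratio of CKO+RI to Flox+ICI was 1.38 (1.20 to 1.59) for Nkg7, 1.24 (0.924 to 1.67) for Prf1 and 1.08 (0.796 to 1.47) for Gzmb. With each cell thinned to 1000 UMIs, which left out 18, 5 and 4 cells, a Prf1 UMI was found in 30 of 67 cells of Flox+ICI, 4 of 8 of Flox+RI and 33 of 67 of CKO+RI. Unthinned, Prf1 was found in 57.6%, 46.2% and 74.6% of cells, so the gap between Flox+ICI and CKO+RI was smaller at equal depth.

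Serpinb9, an inhibitor that shields cytotoxic cells from granzyme B, was at 509 (395 to 646) CPM in Flox+ICI against 640.4 (293 to 1216) in Flox+RI and 185 (128 to 259) in CKO+RI, in 45, 7 and 23 cells. It was lower in CKO+RI, with ratios of 0.364 (0.233 to 0.558) over Flox+ICI and 0.289 (0.136 to 0.686) over Flox+RI. TMM scaling raises the ratio over Flox+RI 1.74-fold, and its interval then holds 1. Of the 21 granule and killing genes 11 were measured in CKO+RI over Flox+RI. Of these 3 were at least 2-fold higher, Gzmc, Gzmf and Ctsw, against 13.1% of all measured genes. Serpinb9 was the 1 at least 2-fold lower, against 20%. In Flox+RI over Flox+ICI none of 11 passed 2-fold, against 12.0% of all measured genes higher and 11.1% lower. In CKO+RI over Flox+ICI 2 of 14 were higher and 2 lower, Serpinb9 and the lysosomal membrane gene Lamp1, against 5.37% and 11.4% of all measured genes, with a median log2 ratio of 0.30.

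The higher pair in CKO+RI over Flox+ICI was Gzmc and Gzmf, which encode granzymes C and F. Gzmc had 0, 0 and 356 UMIs and Gzmf 1, 0 and 122. A single cell of CKO+RI held 340 of the Gzmc and 121 of the Gzmf UMIs. That cell, examined after its counts were seen, had 6796 UMIs in all, 1 each of Ncr1, Klrb1c and Ccl5 and 0 of Gzma. Gzmc was found in 3 cells of CKO+RI, and none of these held Gzma.

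Chemokine transcripts were abundant. Ccl5, which draws T cells, stood at 14193 (13556 to 14851) CPM in Flox+ICI against 22698 (20275 to 25331) in Flox+RI and 16382 (15802 to 16978) in CKO+RI. The ratio was 1.60 (1.42 to 1.80) for Flox+RI over Flox+ICI and 0.722 (0.643 to 0.813) for CKO+RI over Flox+RI, but with TMM scaling these became 0.998 and 1.26, on the other side of 1. They also changed sides under the gate that asks for Gzma, Ccl5 and Nkg7, to 0.766 and 1.29. The place of Flox+RI in the order of Ccl5 levels therefore depends on the scaling and the gate.

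Ccl3 and Ccl4, inflammatory chemokines of activated lymphocytes, were lowest in Flox+ICI. Ccl3 was at 98.8 (52.6 to 169), 640.4 (293 to 1216) and 305 (230.4 to 396) CPM, in 9, 7 and 19 cells. Its ratio to Flox+ICI was 6.48 (2.45 to 16.4) in Flox+RI and 3.09 (1.67 to 6.15) in CKO+RI. Ccl4 was at 251, 712 and 457 CPM, with ratios of 2.84 (1.25 to 5.90) and 1.82 (1.21 to 2.82). TMM scaling multiplies the Ccl4 ratio of Flox+RI to Flox+ICI by 0.624, and its interval then holds 1. In CD8 T cells Ccl3 was at 72.8, 117 and 603 CPM and Ccl4 at 144, 97.9 and 1061 CPM, with CKO+RI highest for both.

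Ifng, the macrophage-activating cytokine, was at 266 (185 to 369.8), 498 (200.3 to 1026) and 506 (409 to 620.5) CPM. The ratio to Flox+ICI was 1.90 (1.28 to 2.90) in CKO+RI and 1.87 (0.702 to 4.28) in Flox+RI, where the interval holds 1. Thinned to 1000 UMIs, Ifng was found in 20.9% (11.9 to 32.6) of cells in Flox+ICI and 34.3% (23.2 to 46.9) in CKO+RI, intervals that overlap. Among secreted factors 2 of 6 measured were at least 2-fold higher in CKO+RI over Flox+ICI, Ccl3 and Ltb, against 5.37% of all measured genes, and none lower, with a median log2 ratio of 0.89. Ltb, which encodes lymphotoxin beta, had 4, 0 and 20 UMIs. In Flox+RI over Flox+ICI 2 of 5 were higher, Ccl3 and Ccl4, against 12.0%, and in CKO+RI over Flox+RI 1 of 6 was higher, Ltb, and 1 lower, Ccl3, against 13.1% and 20%.

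Tbx21, which encodes the T-box factor T-bet, was lower in CKO+RI than in both other libraries. It was at 843 (694 to 1016), 1423 (869 to 2198) and 534 (433 to 650.4) CPM, and its ratio in CKO+RI was 0.633 (0.477 to 0.838) over Flox+ICI and 0.375 (0.230 to 0.641) over Flox+RI. With TMM scaling these were 0.687 and 0.652, on the same side of 1, but the interval of the ratio over Flox+RI then holds 1. Thinned to 1000 UMIs, Tbx21 was found in 46.3% (34.0 to 58.9) of cells in Flox+ICI and 41.8% (29.8 to 54.5) in CKO+RI, intervals that overlap. Outside the NK cells Tbx21 stood at 10.3, 4.74 and 2.37 CPM, also lowest in CKO+RI. Eomes, the other T-box factor of NK cells, is a gate gene, and its levels are a description. Eomes was at 220.3 (148 to 316) CPM in 27 cells of Flox+ICI and 59.9 (29.9 to 107) in 9 cells of CKO+RI, a ratio of 0.272 (0.123 to 0.561). Flox+RI had no Eomes UMI, for which the exact upper bound is 262 CPM. The limits other than Cd3 had removed 43 barcodes with Eomes in CKO+RI and 1 in Flox+ICI.

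Bach2, a repressor in lymphocytes, was at 372, 712 and 179.7 CPM, and outside the NK cells at 29.5, 15.6 and 6.34 CPM, also lowest in CKO+RI. In the NK cells its ratio for CKO+RI over Flox+ICI was 0.483 (0.301 to 0.766). Id2, which NK cells need to develop, was at 471, 427 and 729.8 CPM, a ratio of 1.55 (1.14 to 2.13). Irf8 and Zeb2, factors of NK cell maturation, had ratios of 1.08 (0.771 to 1.51) and 1.31 (0.942 to 1.84), which hold 1. Of 14 measured transcription factors none was at least 2-fold higher in CKO+RI over Flox+ICI and 2 were lower, Eomes and Bach2, against 5.37% and 11.4% of all measured genes, with a median log2 ratio of -0.29. Over Flox+RI 3 of 12 were at least 2-fold lower in CKO+RI, Tbx21, Tox and Bach2, where 20% of all measured genes were, and none higher; the interval of Tox, 0.160 to 2.81, held 1, and with TMM the ratios of Tbx21 and Tox were 0.652 and 0.932, short of 2-fold. In Flox+RI over Flox+ICI 2 of 13 were higher, Irf8 and Klf2, and 1 lower, Eomes, against 12.0% and 11.1% of all measured genes, and all 3 intervals held 1.

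Receptors and transducers of the cytokines that drive NK cells lay on both sides of 1 in CKO+RI over Flox+ICI. Il18r1, a chain of the interleukin 18 receptor, was at 129 (75.2 to 207) CPM in 17 cells of Flox+ICI and 343 (264 to 439) in 35 cells of CKO+RI, a ratio of 2.66 (1.54 to 4.84). It had 0 UMIs in Flox+RI, and in the summed cells CKO+RI was at 1.61 times a floor of 3 counts there. That floor is not a bound of the exact interval. Il12rb2, a chain of the interleukin 12 receptor, was at 403, 783 and 223 CPM, and Stat4, which transmits its signal, at 501, 640.4 and 239.6 CPM. Their ratios in CKO+RI were 0.555 (0.360 to 0.850) and 0.478 (0.319 to 0.710) over Flox+ICI and 0.285 (0.144 to 0.615) and 0.374 (0.180 to 0.872) over Flox+RI. Il18r1 was thus higher and the interleukin 12 pair lower in CKO+RI than in Flox+ICI. Over Flox+RI, TMM scaling raises the ratios of the pair 1.74-fold, and both intervals then hold 1. Outside the NK cells Il12rb2 stood at 18.6, 7.09 and 9.90 CPM, highest in Flox+ICI and lowest in Flox+RI. Il2rb, a chain shared by the receptors for interleukin 2 and interleukin 15, was at 532, 640.4 and 583 CPM with a ratio of 1.10 (0.803 to 1.503).

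Markers of mature NK cells were close together in Flox+ICI and CKO+RI. Some were higher in the 13 cells of Flox+RI, on few UMIs and in part on single cells. Itgam (CD11b) was at 68.4, 427 and 70.8 CPM, Spn (CD43) at 122, 498 and 103 and Itga4, an integrin chain, at 372, 925 and 387. For Cma1 the ratio of Flox+RI to Flox+ICI was 4.68 (1.96 to 10.5), and that of CKO+RI to Flox+RI 0.168 (0.0765 to 0.398). The list had 3 of 7 measured genes at least 2-fold higher in Flox+RI over Flox+ICI, Cma1, Spn and Itga4, against 12.0% of all measured genes. The same 3 of 8 were at least 2-fold lower in CKO+RI over Flox+RI, against 20%. In CKO+RI over Flox+ICI none of 10 passed 2-fold, against 5.37% of all measured genes higher and 11.4% lower. The first 2 counts share Flox+RI, whose sums are small: Cma1 had 10 UMIs in 5 cells, Itgam 6 in 3 and Spn 7 in 5. With TMM scaling the ratio of Flox+RI to Flox+ICI was 2.92 for Cma1 and 1.55 for Itga4, and that of CKO+RI to Flox+RI was 0.727 for Itga4, so Itga4 passed 2-fold in neither. For Spn the ratio of Flox+RI to Flox+ICI was 4.10 (1.43 to 10.5), and with TMM its interval holds 1. Without the highest cell of each gene, that ratio's interval held 1 for Itgam (0.670 to 17.6), Spn (0.684 to 9.33) and Itga4 (0.955 to 4.29). For Cma1 it left out 1 (1.01 to 8.21). Itgam, with 6 UMIs in Flox+RI and 9 in Flox+ICI, was short of the 20 UMIs of a measured gene.

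Thy1, found on T cells and on part of the NK cells, was found among the gated NK cells in CKO+RI alone. It had 29 UMIs in 13 of 71 cells there, 158 (106 to 227) CPM, and 0 in the 85 cells of Flox+ICI and the 13 of Flox+RI. In the summed cells this was 6.93 times a floor of 3 counts in Flox+ICI, which is not a bound of the exact interval. Thinned to 1000 UMIs, 7.46% (2.47 to 16.6) of 67 cells of CKO+RI and 0% (0 to 5.36) of 67 of Flox+ICI held a Thy1 UMI, and these intervals overlap. In CD8 T cells Thy1 stood at 359, 294 and 417 CPM. Of T cell genes in the same NK cells, Trbc2 was at a ratio of 2.81 (1.51 to 5.64) in CKO+RI over Flox+ICI, while Cd4, Cd8a and Cd8b1 were at 0. The direction depends on the gate: with no limit on C1q or keratin the ratio of CKO+RI to Flox+ICI was 0.794 (0.247 to 4.06). The part of other T cells in the Thy1 level was not tested.

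On the immature NK list 3 of 6 measured genes, Thy1, Ltb and Cd7, were at least 2-fold higher in CKO+RI over Flox+ICI, against 5.37% of all measured genes, and none lower, with a median log2 ratio of 0.90. The interval of Cd7, 0.803 to 8.01, held 1. Cd27, a usual surface marker of less mature NK cells, had 3, 2 and 4 UMIs. Ctla2a, a protease inhibitor gene, was at 707, 71.2 and 517 CPM in 29, 1 and 30 cells. Over Flox+RI, 3 of 4 were at least 2-fold higher in CKO+RI, Ltb, Ctla2a and Thy1, against 13.1%. Ltb and Thy1 had 0 UMIs in Flox+RI, and their intervals there held 1.

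Genes of the p53 response and of cell survival were lower in CKO+RI than in Flox+ICI where they passed 2-fold. Cdkn1a, the p53 target that arrests the cell cycle, was at 608 (482 to 756) CPM in 43 of 85 cells of Flox+ICI, 142 (17.2 to 514) in 2 of 13 of Flox+RI and 218 (156 to 297) in 23 of 71 of CKO+RI. Its ratio to Flox+ICI was 0.234 (0.0279 to 0.874) in Flox+RI and 0.358 (0.239 to 0.530) in CKO+RI. Thinned to 1000 UMIs, Cdkn1a was found in 43.3% (31.2 to 56.0) of cells in Flox+ICI and 11.9% (5.30 to 22.2) in CKO+RI, intervals that do not overlap. Thinned to 500 UMIs, which left out no cell, the shares were 18.8% (11.2 to 28.8) and 7.04% (2.33 to 15.7), intervals that overlap. Outside the NK cells Cdkn1a stood at 193, 119 and 70.3 CPM, also highest in Flox+ICI.

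Bcl2, which blocks cell death, was at 874, 854 and 408 CPM, and Bcl2l11, which encodes the opposing protein BIM, at 471, 213 and 185 CPM. Their ratios of CKO+RI to Flox+ICI were 0.467 (0.345 to 0.631) and 0.393 (0.251 to 0.607). Thinned to 1000 UMIs, Bcl2 was found in 46.3% (34.0 to 58.9) of cells in Flox+ICI and 29.9% (19.3 to 42.3) in CKO+RI, intervals that overlap. Unthinned, at unequal depth, the shares were 56.5% and 64.8%. Cdkn1a, Bcl2 and Bcl2l11 were the 3 of 8 measured genes of the p53 and survival list at least 2-fold lower, against 11.4% of all measured genes. None was at least 2-fold higher, against 5.37%. Outside the NK cells Bcl2 stood at 58.0, 37.0 and 33.8 CPM and Bcl2l11 at 106, 76.5 and 46.1 CPM, again highest in Flox+ICI.

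The heat shock genes Hspa1a and Hspa1b were higher in CKO+RI than in Flox+ICI. Hspa1a was at 30.4, 71.2 and 223 CPM in 4, 1 and 19 cells and Hspa1b at 30.4, 0 and 251 CPM in 4, 0 and 24 cells. The ratios of CKO+RI to Flox+ICI were 7.35 (2.66 to 28.2) and 8.24 (3.01 to 31.5). Over Flox+RI, with 1 and 0 UMIs, the intervals of both held 1. Thinned to 1000 UMIs, Hspa1a was found in 1.49% (0.0378 to 8.04) of cells in Flox+ICI and 10.4% (4.30 to 20.3) in CKO+RI, and Hspa1b in 2.99% (0.364 to 10.4) and 17.9% (9.61 to 29.2), intervals that overlap for each gene. In CD8 T cells Hspa1a was at 18.7, 19.6 and 332 CPM and Hspa1b at 14.9, 29.4 and 266 CPM, also highest in CKO+RI. In the immediate early and heat shock list 3 of 15 were at least 2-fold higher in CKO+RI over Flox+ICI, the other being Fosb, and 2 lower, Atf3 and Egr1, against 5.37% and 11.4% of all measured genes.

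Several of the genes with the clearest ratios belong to no list. Pfn1, which binds actin, was at 228, 285 and 735 CPM, a ratio of 3.23 (2.16 to 4.96) for CKO+RI over Flox+ICI. Tmsb4x, which encodes the actin-binding thymosin beta 4, was at 7613, 6546 and 13011 CPM, a ratio of 1.99 (1.61 to 2.48) over Flox+RI. AW112010 was at 2499.7, 1779 and 4439 CPM, a ratio of 2.495 (1.68 to 3.88) over Flox+RI and 1.78 (1.56 to 2.02) over Flox+ICI. Lower in CKO+RI than in Flox+ICI were Lncpint, a long noncoding RNA, at 935, 1708 and 343 CPM with a ratio of 0.367 (0.267 to 0.501), and Nr4a3, a nuclear receptor induced by activation, at 471, 356 and 76.2 CPM with a ratio of 0.162 (0.0837 to 0.292). Astl, which encodes a protease known from the egg, had 30, 5 and 1 UMIs in NK cells, and outside them Astl lay at 36.2, 24.3 and 3.12 CPM.

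Other named genes are known from other cells. S100a8, S100a9 and Retnlg, which are neutrophil genes, were among those higher in CKO+RI than in both other libraries, and all 3 were at 0 in Flox+RI. S100a9 had 48, 0 and 366 UMIs, with 247 and 98 of the last in 2 cells. Without the 5 cells of CKO+RI that held 10 or more neutrophil or erythroid UMIs, the ratio of CKO+RI to Flox+ICI was 0.198 for S100a9, 0.116 for S100a8 and 0.693 for Retnlg. Their direction thus rests on those cells. Scgb1a1, a secretory gene of club cells, was at 783, 71.2 and 185 CPM in NK cells and at 1431, 146 and 299.6 CPM outside them; the part of free RNA in it was not tested. Pecam1, an endothelial gene, was at 251, 71.2 and 27.2 CPM, and 34 of the 72 endothelial UMIs of Flox+ICI were in 1 cell.

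**Figure D5:**
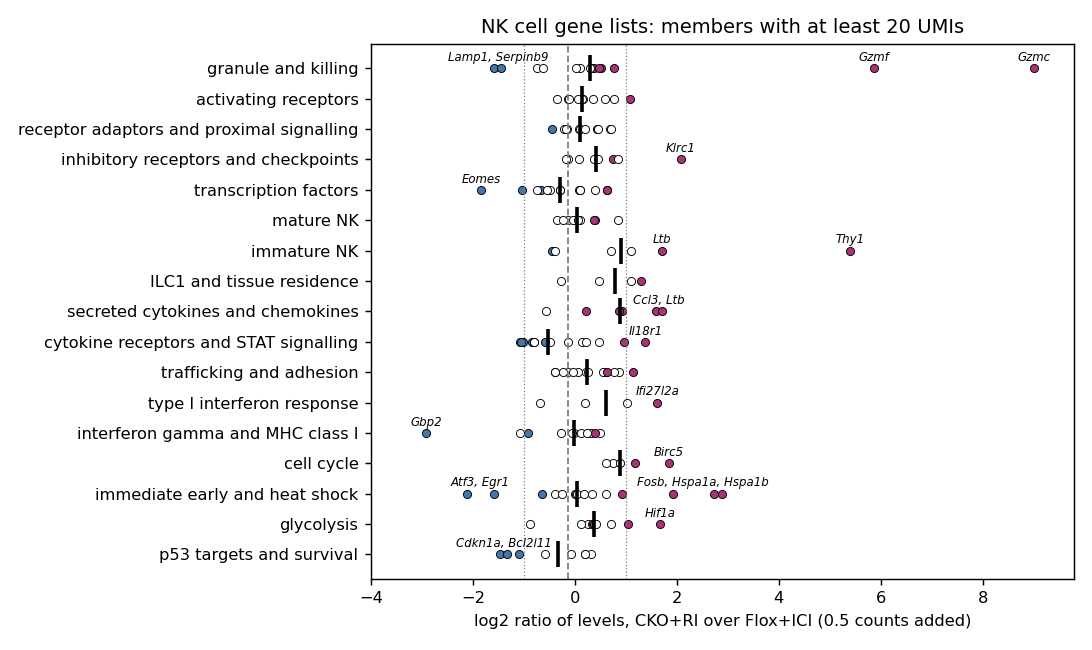
Log2 ratio of levels in NK cells, CKO+RI over Flox+ICI, for each list gene with at least 20 UMIs in both libraries together (points; filled where the exact 95% interval leaves out 1), with list medians (bars), the median of all measured genes (dashed, -0.13) and 2-fold limits (dotted). Gzmc and Gzmf stand far right, with 340 and 121 of their UMIs in 1 cell, and the median of the cytokine receptor list is -0.54.

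Against CD8 T cells of the same library, Gzma and Tyrobp stood further apart than Nkg7. The ratio of NK to CD8 T cells for Nkg7 was 1.16, 2.08 and 1.19 in Flox+ICI, Flox+RI and CKO+RI. For Gzma it was 5.27, 9.43 and 21.6, and for Tyrobp 9.49, 5.42 and 26.9. Of activating receptors 9 of 12 measured in Flox+ICI and 9 of 14 in CKO+RI were at least 2-fold higher in NK cells, where 11.1% and 8.38% of all measured genes were; in Flox+RI the 1 measured was not. Of cell cycle genes 10 of 13 were at least 2-fold lower in NK cells of Flox+ICI against 10.7% of all genes, and 3 of 14 in CKO+RI against 8.37%. Mki67, the proliferation marker, had 2, 1 and 4 UMIs in NK cells. The rule set NK cells apart by Cd3 and receptor genes, so these contrasts are a description.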

How the data were processed

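Droplet single-cell RNA libraries of 3 samples, 1 per group, were analysed from the matrices of raw UMI counts that the authors deposited. The submitters' processing notes name Cell Ranger 6.0, Seurat 5.0.3 and mm10, while Cell Ranger 6.1.2 stands in the deposited file headers; the gene annotation and any cell filter are not given in the sources used here. Kept barcodes had at least 200 genes and no more than 20% of UMIs from mitochondrial genes. NK cells were gated as described, and their counts summed per library. Doublets called by Scrublet in scanpy 1.11.5 were removed only as an alternative. Intervals are exact (Clopper-Pearson, Poisson and conditional binomial; scipy 1.17.1), and 1 UMI was worth 7.60, 71.2 and 5.45 CPM. TMM factors came from edgeR 4.0.16. Named genes were the 10 highest per direction by the interval bound nearest 1 (at least 20 UMIs, 10% of cells), the 20 leading genes, the gate genes and list members. The gate, lists and members were chosen with earlier results of these data known. The code was tested on simulated data. Alternatives changed the gate, filters, depth, denominator and scaling.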

Additional observations from a re-analysis of the deposited data

How the results depend on the processing

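No paired analysis was possible because each group has 1 library, and no replicate could be left out. Depth limits Flox+RI most, where 1 UMI in 14054 is worth 71.2 CPM. Flox+RI had the lowest NK share under every gate and denominator run. The share ratios stayed inside their intervals under the rule in 32 of 39 alternatives, but these intervals can be wide or hold 1. Of gene ratios 517 of 603 stayed inside their interval under the rule, and 23 whose interval left out 1 changed sides. Of list medians 568 of 598 moved by less than the median counting error of their genes' ratios. For a gene at 0 in the second library the lower bound stood for the ratio. Gene counts changed with the gate, the UMI minimum and the scaling; for the values below the cause was not tested. The share ratio of CKO+RI over Flox+ICI was 1.57 with no C1q or keratin limit, 0.580 under stricter limits, 1.56 over barcodes with Ptprc and 0.612 with the gate on Gzma, Ccl5 and Nkg7, against 0.988 under the rule. The share ratio of CKO+RI over Flox+RI was 3.86 under stricter limits and 3.99 over NK and T cells, against 7.90 under the rule. The share ratio of Flox+RI over Flox+ICI was 0.255 over NK and T cells, against 0.125 under the rule. The 158 genes at least 2-fold higher in CKO+RI over Flox+ICI became 98 with 3 gate genes, 95 without T cell receptor UMIs, 1972 with no C1q or keratin limit, 57 under stricter limits, 40 at 50 UMIs and 915 at 5 UMIs. The 334 genes at least 2-fold lower in CKO+RI over Flox+ICI became 181 with 3 gate genes, 174 without T cell receptor UMIs, 2130 with no C1q or keratin limit, 123 under stricter limits, 73 at 50 UMIs and 1310 at 5 UMIs. The 222 genes at least 2-fold higher in CKO+RI over Flox+RI became 83 without T cell receptor UMIs, 1048 with no C1q or keratin limit, 57 under stricter limits, 564 with TMM, 55 at 50 UMIs, 568 at 5 UMIs and 401 without the highest cell. The 338 genes at least 2-fold lower in CKO+RI over Flox+RI became 186 with 3 gate genes, 103 without T cell receptor UMIs, 1322 with no C1q or keratin limit, 46 under stricter limits, 54 with TMM, 60 at 50 UMIs, 1812 at 5 UMIs and 123 without the highest cell. The 166 genes at least 2-fold higher in Flox+RI over Flox+ICI became 52 with 3 gate genes, 460 with no C1q or keratin limit, 55 under stricter limits, 18 with TMM, 19 at 50 UMIs, 1297 at 5 UMIs and 43 without the highest cell. The 153 genes at least 2-fold lower in Flox+RI over Flox+ICI became 82 with 3 gate genes, 726 with no C1q or keratin limit, 78 under stricter limits, 411 with TMM, 29 at 50 UMIs, 770 at 5 UMIs, 263 with the gate on Gzma, Ccl5 and Nkg7 and 254 without the highest cell. With the gate on Gzma, Ccl5 and Nkg7, ratios on the other side of 1 were 1.29 for Ccl5, 1.04 for Eef2 in CKO+RI over Flox+RI, 0.766 for Ccl5, 0.949 for Ptprc in Flox+RI over Flox+ICI. With 3 gate genes, ratios on the other side of 1 were 3.91 for Syne2 in CKO+RI over Flox+ICI, 0.934 for Ptprc in Flox+RI over Flox+ICI. With no C1q or keratin limit, ratios on the other side of 1 were 0.365 for Retnlg, 0.794 for Thy1, 0.376 for S100a9, 0.379 for S100a8, 0.575 for Sulf2, 1.65 for Syne2 in CKO+RI over Flox+ICI, 0.971 for Srrm2 in CKO+RI over Flox+RI, 0.234 for Ccl5, 0.594 for Lncpint, 0.2505 for Ptprc, 1.24 for Gnas in Flox+RI over Flox+ICI. Under stricter limits, ratios on the other side of 1 were 0.314 for Retnlg, 0.236 for S100a9, 0.140 for S100a8 in CKO+RI over Flox+ICI. Without the cells rich in neutrophil or erythroid UMIs, ratios on the other side of 1 were 0.693 for Retnlg, 0.198 for S100a9, 0.116 for S100a8 in CKO+RI over Flox+ICI. Shares of NK cells with a UMI, not thinned, were 60.6% for Gzmb in CKO+RI, 57.6% for Prf1 in Flox+ICI, 74.6% for Prf1 in CKO+RI, 52.1% for Ifng in CKO+RI. Shares of NK cells with a UMI, thinned to 500 UMIs, were 31.0% for Gzmb in CKO+RI, 24.7% for Prf1 in Flox+ICI, 15.4% for Prf1 in Flox+RI, 28.2% for Prf1 in CKO+RI, 8.24% for Ifng in Flox+ICI, 15.5% for Ccl4 in CKO+RI.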
